A study of Mus musculus with 4 samples.

Results

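The genes described here are 54 genes whose products copy and repair DNA. They were chosen by name as a functional set, with earlier results of these data known. Their levels were compared between cells of the surface and of the crypts in mouse colon, on a diet with or without heme. Each gene was measured by the probe sets of the array whose only gene symbol in the platform annotation is that gene, averaged where there were several. All 54 were measured, out of 19938 genes on the array, by 56 probe sets in total. For 52 of them there was 1 probe set, and Pcna and Tk1 had 2 each.

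Before a cell divides it copies its genome once. The origin recognition complex and its partners load the MCM helicase onto DNA in G1, and at the start of S phase the kinase Cdc7 with Dbf4, Cdc45 and the GINS complex turn it into the active CMG helicase. Polymerases then copy each strand around the sliding clamp PCNA, while ribonucleotide reductase, thymidylate synthase and thymidine kinase supply the nucleotides. Many of these genes are transcribed under E2F factors as cells enter S phase. In the colon, dividing cells lie in the crypt, and cells stop dividing as they move up to the surface, where they are shed.

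The mice were male C57BL/6 animals, 11 weeks old, fed for 14 days a diet high in fat (40% of energy) and low in calcium. The control groups received this diet alone, and the heme groups the same diet with heme, the iron pigment of red meat, at 0.5 µmol/g. Laser capture microdissection, in which chosen cells are collected from a tissue section under a microscope, was used to take surface and crypt cells separately from rolled, frozen colon. RNA was pooled over 4 control mice or 3 heme-fed mice in each compartment. Each diet thus has a surface and a crypt group, with 1 array each, and both pools of a diet come from the same animals. There are no replicates, so no difference has a check against the spread between mice, and neither p-values nor standard deviations can be given.

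All values are log2 expression values made with RMA by the authors. For the counts, a gene is higher or lower if its levels are 2-fold or more apart (1 on the log2 scale), provided that 1 or more of the compared arrays reads at least 5.75. That level is the median of all gene values on the 4 arrays and is called the floor below. Words such as higher refer to this rule of size where a count is given, and not to a test. The floor matters for these genes: 29 of the 54 lay below it on the control surface array, 26 on heme surface, 6 on control crypt and 1 on heme crypt. The floor is not a measured detection limit. Values below it may lie close to background, so the surface level of many of these genes, and the size of a difference from it, is uncertain. In pooled tissue, fewer dividing cells and less RNA per cell cannot be told apart. The compartments carried their labelled markers: the median level of 6 surface colonocyte markers (such as the keratin gene Krt20) was 12.58 and 12.68 on the surface arrays against 7.84 and 9.24 on the crypt arrays, and that of 6 crypt base and progenitor markers (such as Lgr5) was 7.94 and 7.81 on the crypt arrays against 5.61 and 5.76 on the surface arrays, each with control first.

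In mice on the control diet, replication genes were more highly expressed in crypt cells than in surface cells. All 54 differences of surface minus crypt lay below 0 in the values as deposited (23 did after centring on ribosomal protein genes, described further on), with a median of -1.22 (2.33-fold lower in surface cells). At least 2-fold lower were 35 genes, and none was higher. For 21 of the 35 the surface value was below the floor. Over all genes the median was 0.059, and 13.5% of those tested were lower and 12% higher by the same rule. The range was wide, from -2.996 to -0.37.

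The helicase genes lay near both ends of that range. Mcm6, a subunit of the helicase ring, stood at 6.17 in control surface cells and 9.17 in control crypt cells, and at 6.02 and 9.57 on heme. Both crypt pools were therefore far above their surface partners, and the difference of -2.996 on the control diet (7.98-fold) was the largest of the 54. The other ring subunits followed, with Mcm3 at -2.75, Mcm2 at -2.56, Mcm5 at -2.21, Mcm7 at -2.01 and Mcm4 at -1.99. The partners that activate the ring differed less. Cdc45 read 5.76 on control surface and 6.34 on control crypt, a difference of -0.58, and the GINS genes Gins2 (-0.42), Gins3 (-0.51) and Gins4 (-0.55) also missed the 2-fold mark. Gins1 differed by -1.45 with its values of 3.65 and 5.10 both below the floor.

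Genes of the polymerases were lower in surface cells in all 7 cases, with a median of -1.64. Prim1, the catalytic subunit of the primase that starts each new strand, read 4.11 on control surface and 6.98 on control crypt (-2.87). Pola1, the polymerase that extends those primers, differed by -2.28 and Pole, the leading strand polymerase, by -2.22. Every polymerase and primase gene was below the floor on the control surface array, so the sizes of these differences are uncertain. The 4 genes of chromatin assembly and DNA methylation also passed the rule. Uhrf1, which brings the maintenance methylase to newly copied DNA, differed by -2.33, the chromatin assembly factor subunit gene Chaf1b by -2.18, Dnmt1, the methylase, by -1.64 and Chaf1a by -1.30.

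The remaining roles were mixed on the control diet. Of 10 genes of the clamp, the clamp loader, single-strand binding and the joining of Okazaki fragments, 6 were lower (median -1.13), with the loader gene Rfc4 at -1.83 and Pcna at -1.23. Of 6 nucleotide supply genes, 4 were lower. Rrm1, the large subunit of ribonucleotide reductase, differed by -2.47, while the thymidine kinase gene Tk1 differed by only -0.48. Of 7 licensing and firing genes 4 were lower (median -1.01), led by Orc6 at -1.47. Among 6 repair and checkpoint genes 4 were lower, led by the checkpoint kinase gene Chek1, which read 3.81 on control surface and 6.71 on control crypt (-2.90). Blm differed by -1.79 with both values below the floor. Neither the cyclin genes Ccne1 (-0.56) and Ccne2 (-0.37) nor E2f1 (-0.56), which drive entry into S phase, passed the rule.

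These compartment values depend on how the arrays are scaled. RMA gives the arrays like distributions, whereas the median level of 61 ribosomal protein genes was itself lower in surface cells, 9.50 against 10.76 on the control diet. Centring the arrays on those genes moved the median difference of all genes by 1.27, to 1.33, and that of the 54 genes to 0.044, with 31 above 0 and 23 below. Centring adds the same constant to every gene, so it leaves the distance of the 54 from the median of all genes as it was. After it 8 of the 54 were at least 2-fold lower, where 0.969% of all genes tested were lower and 65.7% higher. With log2(2^value + 32), which damps low values, 19 were lower, where 8.41% of all genes tested were.

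On the heme diet the gap between the compartments was wider. The median of surface minus crypt was -1.85 (3.61-fold), against 0.0045 over all genes. In surface cells 48 of the 54 genes were at least 2-fold lower and none was higher, where 16.5% and 15.3% of all genes tested were. Of these 48, 33 had passed the rule on the control diet too and 15 had not, while 2 genes, Rrm2 and Pola2, passed it on the control diet only. The same overlap was not counted over all genes. Control diet values of the 15 ran from just short of the mark (Rfc5 -0.99, Msh6 -0.98) to -0.48 (Tk1). Blm (-1.79) was among them on account of the floor alone. For 25 of the 48 the heme surface value was below the floor, which leaves the size of the gap uncertain. The gap was wider on heme for 49 of the 54 genes, but only 31 of the 54 reached the floor on either surface array. Over all genes, surface minus crypt was lower on heme than on the control diet for 11038 of 19938. A change of this gap with diet is, by arithmetic, also a diet difference that is unlike between compartments. The comparison of diet differences further on therefore restates this result and adds no separate evidence.

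**Figure D1:**
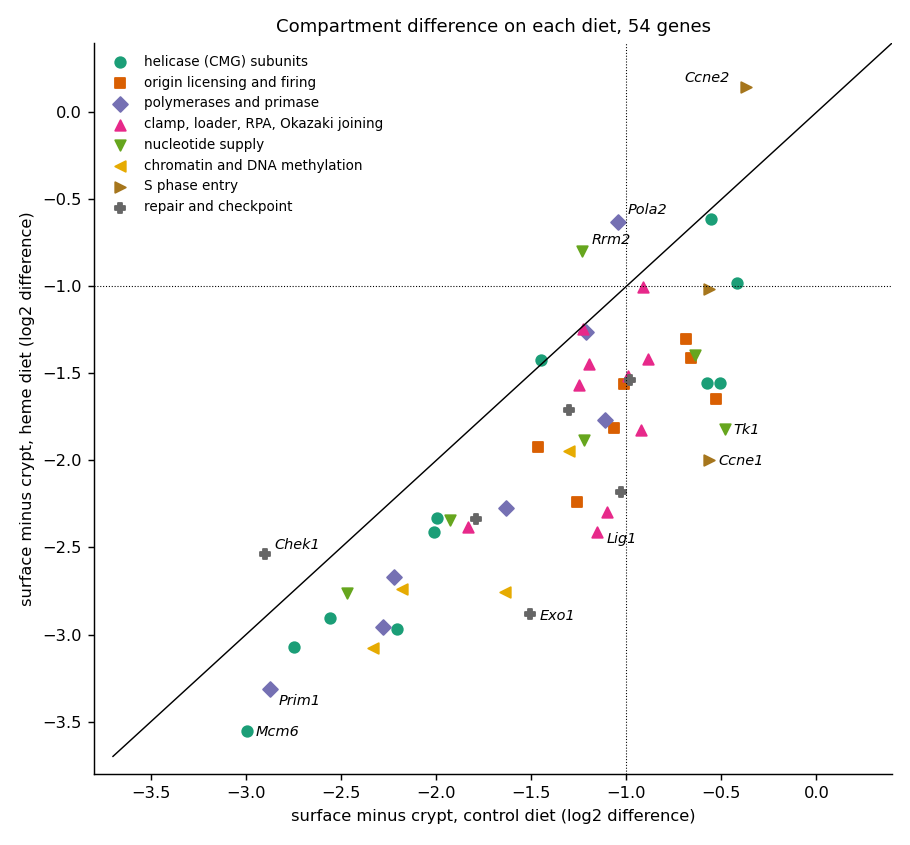
Each point is 1 of the 54 genes, placed by its log2 difference of surface minus crypt on the control diet (horizontal axis) and on the heme diet (vertical axis), with colour and shape for its role. The solid line marks equal differences and the dotted lines a 2-fold lower level in surface cells; 49 points lie below the solid line, and Ccne2 (0.14) is the 1 gene above 0 on heme.

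Some genes with a narrow gap on the control diet had a wide one on heme. Ccne1, the cyclin that activates the S phase kinase, read 5.85 in surface and 6.42 in crypt cells on the control diet, but 5.79 and 7.79 on heme, so the difference went from -0.56 to -1.997. Tk1 went from -0.48 to -1.82. Among genes that already differed on the control diet, Exo1, a nuclease of mismatch repair and of DNA end resection, went from -1.50 to -2.88 and Lig1, the ligase that joins Okazaki fragments, from -1.15 to -2.41. By role, the widest median gaps on heme were those of chromatin genes (-2.75, from -1.91 on the control diet), helicase subunits (-2.33, from -1.99), polymerases and primase (-2.27, from -1.64) and repair genes (-2.26, from -1.40). On the heme surface array 3 of 4 chromatin, 4 of 11 helicase, 6 of 7 polymerase and primase and 5 of 6 repair genes were below the floor. The sizes of these gaps, and their ranking, are therefore uncertain. Nucleotide supply genes went from -1.23 to -1.85, licensing and firing genes from -1.01 to -1.64, the clamp and joining genes from -1.13 to -1.54 and the S phase entry genes from -0.56 to -1.02. All 7 licensing and firing genes and all 10 clamp and joining genes passed the rule on heme. The genes that did not were Gins1 (-1.42, both values below the floor), Gins2 (-0.98), Rrm2 (-0.80), Pola2 (-0.63), Gins4 (-0.61) and Ccne2.

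After ribosomal protein centring the heme diet median was -0.70, with all genes at 1.15, and 23 of the 54 were at least 2-fold lower, where 2.7% of all genes tested were lower and 59% higher.

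In crypt cells, the levels of all 54 genes were higher on heme than on the control diet, by between 0.10 and 1.70 on the log2 scale. The median difference was 0.64 (1.56-fold), against 0.010 over all genes, of which 10308 of 19938 lay above 0. At least 2-fold higher were 9 of the 54, namely Rrm2, Dbf4, Ccne1, Blm, Brca1, Exo1, Gins3, Fen1 and Tk1, and none was lower; 1.78% of all genes tested were higher and 1.19% lower by that rule. For 53 of the 54 genes the heme crypt array had the highest value of the 4, the exception being Ccne2. That count follows from the signs of the crypt and compartment differences already given. It was not made over all genes. With a bound of 1.5-fold, 32 genes were higher (5.89% of all genes tested), and with log2(2^value + 32), 3 were (1.01% of all), the 54 differences staying above 0 in each setting tried.

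**Figure D2:**
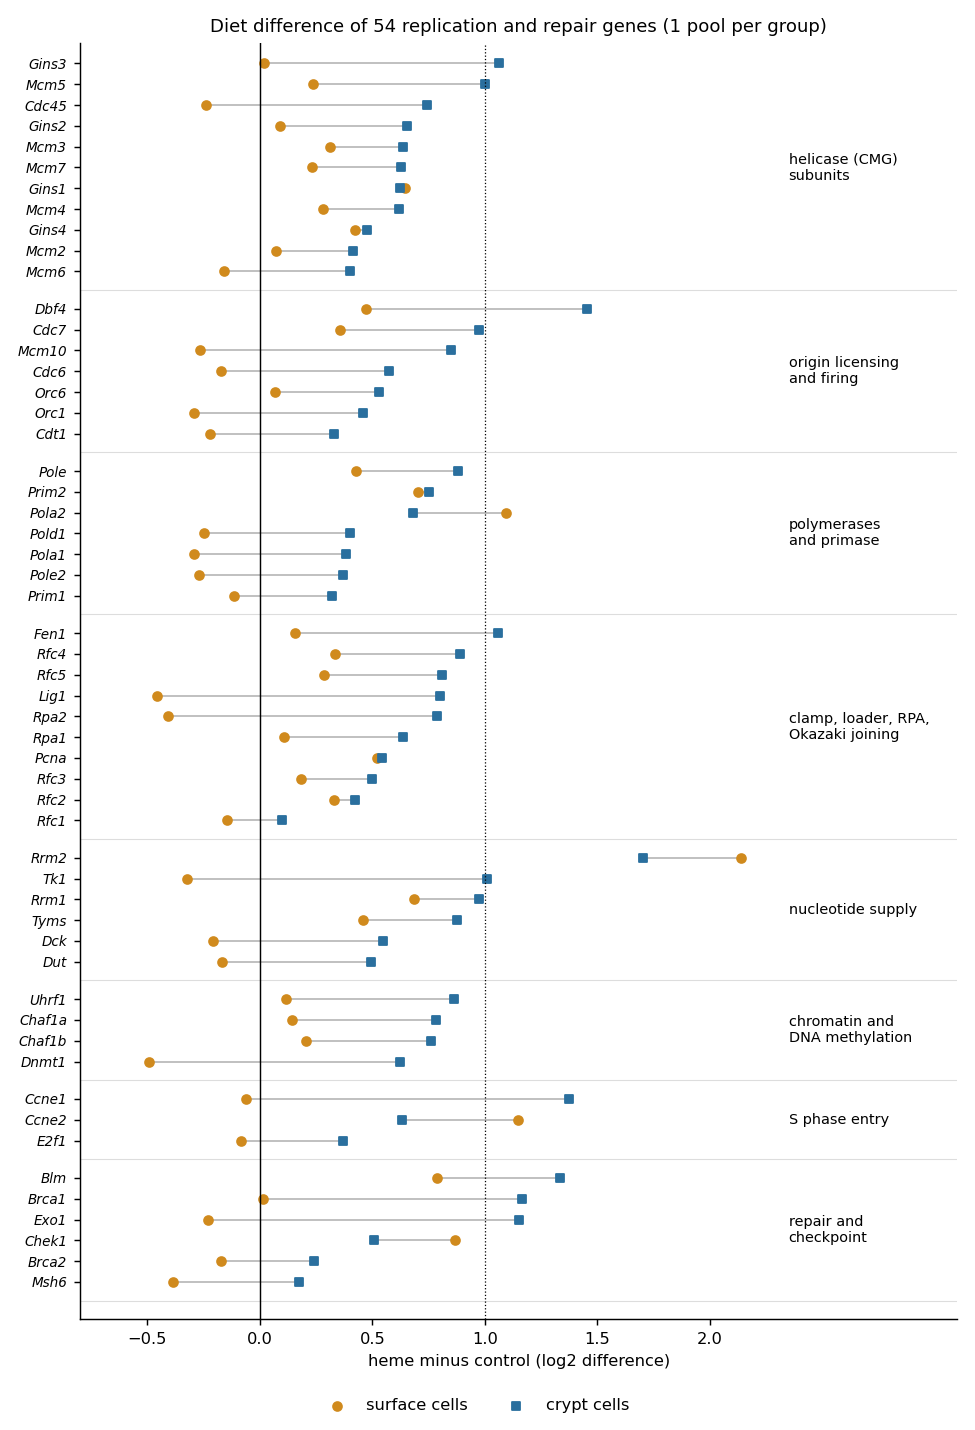
Log2 difference of heme minus control for each of the 54 genes, in surface cells (orange circles) and crypt cells (blue squares), sorted within roles by the crypt value. The dotted line marks 2-fold; every square lies right of 0 (0.10 to 1.70), whereas the circles lie on both sides (-0.49 to 2.14).

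Nucleotide supply genes had the highest median of any role in crypt cells, 0.93 over 6 genes. Rrm2, the small subunit of ribonucleotide reductase that is made in S phase, read 5.51 on control surface, 7.65 on heme surface, 6.74 on control crypt and 8.45 on heme crypt. Both heme pools were above both control pools, and the crypt difference of 1.70 (3.25-fold) was the largest of the 54. Rrm1, its partner subunit, differed by 0.97 (8.85 to 9.83) and the thymidylate synthase gene Tyms by 0.88. Tk1 read 6.88 on control crypt and 7.89 on heme crypt, but its 2 probe sets differed, at 0.65 and 1.37. The pair for Pcna differed by 0.54 each. Dck (0.55), a kinase that salvages deoxynucleosides, and Dut (0.49), which keeps uracil out of DNA, were the lowest of this role.

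Firing and entry genes included some of the larger differences. Dbf4, the activating subunit of the kinase that fires origins, read 5.49 and 5.96 on the control and heme surface arrays and 6.75 and 8.20 on the crypt arrays. The heme crypt pool stood apart from the other 3, and the crypt difference was 1.45 (2.74-fold). Its kinase partner Cdc7 differed by 0.98, from 5.23, below the floor, to 6.20. Ccne1 differed by 1.37 (2.59-fold), again with the heme crypt pool alone at a high level. The licensing genes differed less, with Cdc6 at 0.58, Orc6 at 0.53, Orc1 at 0.46 and Cdt1 at 0.33, and E2f1 read 5.45 and 5.82 (0.37). Mcm10, which helps start unwinding, read 6.65 and 7.49 (0.85).

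The helicase subunits were more even, with a median of 0.63 and a range of 0.40 to 1.06 over 11 genes. Gins3 read 4.72 on control surface, 4.73 on heme surface, 5.22 on control crypt and 6.29 on heme crypt. It passed the rule in crypt cells (1.06), from a control value below the floor, and did not with log2(2^value + 32). Mcm5 read 7.98 on control crypt and 8.98 on heme crypt and lay just under the 2-fold mark. Cdc45 differed by 0.74 and Gins2, Mcm3, Mcm7, Gins1 and Mcm4 by between 0.62 and 0.65. Mcm6, which had the widest gap between compartments, had the smallest diet difference of the helicase genes, 0.40. Polymerase and primase genes had the lowest median of any role, 0.40, and none of the 7 passed the rule. The highest was Pole at 0.88, followed by Prim2, the regulatory primase subunit, at 0.75, and Pola2 at 0.68. Pold1, the lagging strand polymerase, was at 0.40 and Prim1 at 0.32.

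Among the clamp, loader and joining genes, Fen1, the nuclease that trims Okazaki fragments, read 6.47 on control crypt and 7.53 on heme crypt (1.06). Lig1 differed by 0.80, the single-strand binding gene Rpa2 by 0.79 and the loader genes Rfc4 by 0.89 and Rfc5 by 0.81, while Rpa1 (0.64), Rfc3 (0.50) and Rfc2 (0.42) were lower down. Rfc1, the large loader subunit, differed by only 0.10 (8.35 to 8.45), the least of all 54. Chromatin genes lay close together, with Uhrf1 at 0.86, Chaf1a at 0.78, Chaf1b at 0.76 and Dnmt1 at 0.62.

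Repair genes ranged from 0.18 to 1.34. Blm, a helicase that resolves recombination intermediates, read 3.92, 4.71, 5.71 and 7.04 on control surface, heme surface, control crypt and heme crypt. Only the heme crypt pool reached the floor, and the crypt difference was 1.34. Brca1, a recombination factor, differed by 1.16 (6.00 to 7.17), and Exo1 by 1.15 (6.25 to 7.40). In contrast Brca2, which loads the recombinase, differed by 0.24 (5.80 to 6.04) and Msh6, a mismatch recognition subunit, by 0.18 (7.39 to 7.57). Chek1 was between, at 0.51.

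**Figure D3:**
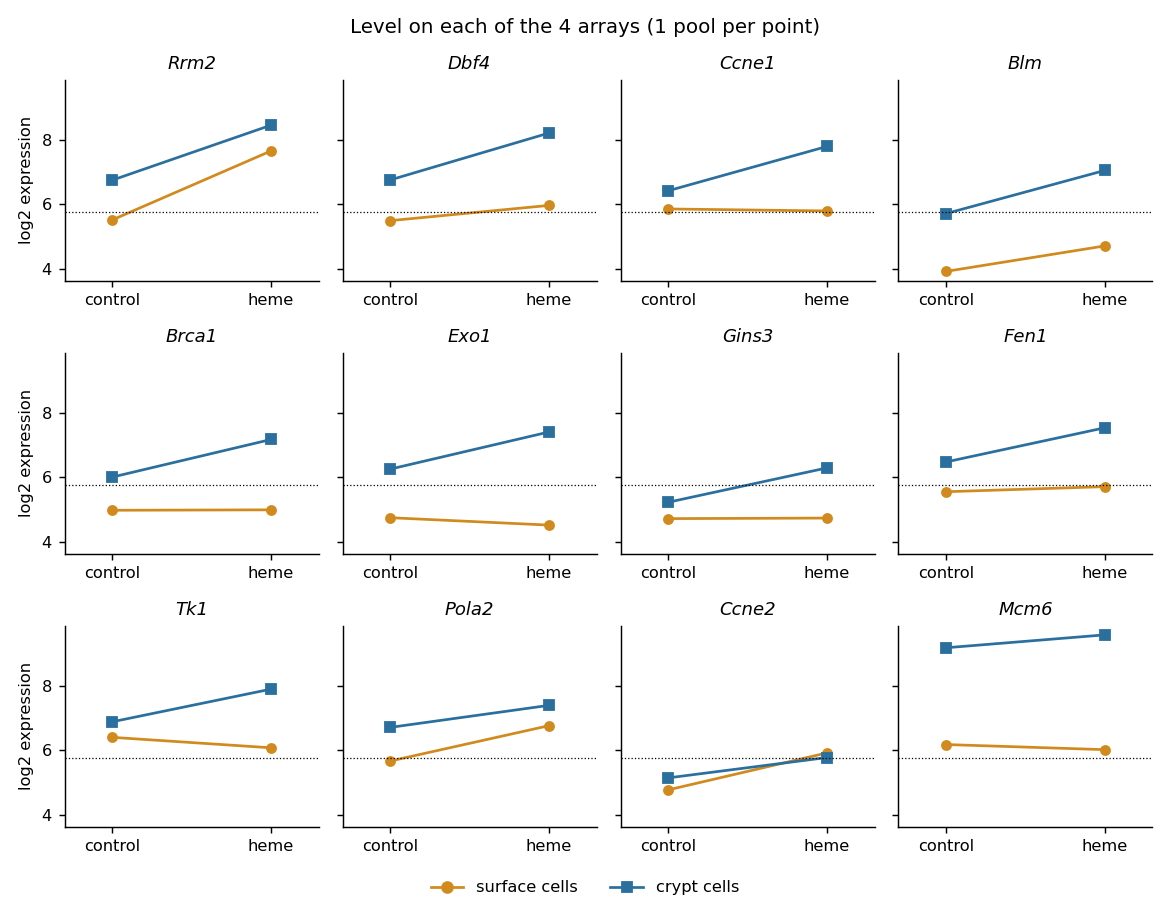
Log2 expression of the 11 genes past the 2-fold rule between diets in either compartment, and of Mcm6, on the control and heme arrays of surface cells (orange circles) and crypt cells (blue squares), 1 pool per point. The dotted line is the floor of 5.75; Rrm2, Pola2 and Ccne2 pass the rule in surface cells, and of these Rrm2 also in crypt cells, where the other 8 pass it; Blm climbs in surface cells too (0.79), below the floor.

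Other genes of the same pathways, from lists of further replication and repair genes, were mostly above 0 in heme crypt cells too. Of 35 further replication genes 31 lay above 0, with a median of 0.46, and 3 were at least 2-fold higher: Asf1b (1.48), a histone chaperone of replicating chromatin, Dscc1 (1.23) and Clspn (1.00), the checkpoint mediator claspin. Of 31 further repair genes measured out of 35 listed, 26 lay above 0 (median 0.38) and 6 were higher. They included the Fanconi anemia genes Fancb (1.44), Fancd2 (1.33) and Fanca (1.31) and the polymerase theta gene Polq (1.28), which act at stalled forks and broken ends. No gene of either list was at least 2-fold lower. The upstream regulators were less uniform. Of 20 E2F, pocket protein and G1 cyclin genes, 13 lay above 0 (median 0.28). E2f8, an E2F family repressor, was higher at 1.05, and Cdk6, a G1 kinase, was lower at -1.002 (9.78 to 8.78).

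Mitosis genes differed more than replication genes between the crypt pools. Of 17 measured, 14 were at least 2-fold higher, and their median of 1.41 (2.66-fold) compares with 0.64 for the 54. Their lowest value, 0.89, lay above the median of the replication genes. The difference between the lists was not tested.

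Markers of other cells moved in the same pair of crypt pools. All 11 smooth muscle and fibroblast markers were below 0 on heme (median -0.72), and their summed linear level went from 5877 to 3252. All 6 endothelial markers were below 0 (median -0.71, sum 750.04 to 447.32), as were 7 of 10 leukocyte markers (median -0.27, sum 1284 to 826.38). None of these lists vanished, with 1 smooth muscle and fibroblast, 1 endothelial and 5 leukocyte markers below the floor on the heme crypt array. Their part in the result was not tested. The 7 pan-epithelial genes, which mark the epithelium as a whole, had a median of -0.044 between the same pools, with a range from -0.38 to 0.13, against 0.64 for the 54. Of 6 crypt base and progenitor markers 5 lay below 0 (median -0.38), with the stem cell receptor gene Lgr5 at -1.07. Of 6 surface colonocyte markers 5 lay above 0 (median 0.93). In this list 3 were 2-fold or more higher, among them the water channel gene Aqp8 at 2.55, and Guca2a lay below 0 at -0.59.

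**Figure D4:**
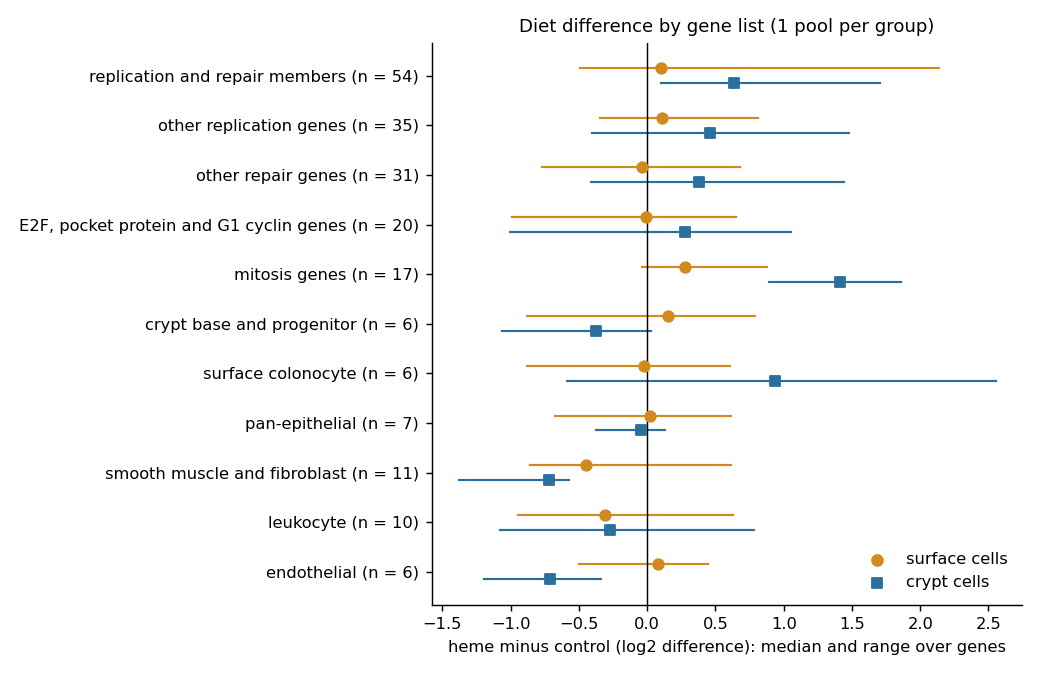
Median (symbol) and full range over genes (line) of the log2 difference of heme minus control for the 54 genes, 4 lists of related genes and 6 marker lists, in surface cells (orange circles) and crypt cells (blue squares). In crypt cells the 54 genes and the mitosis genes lie wholly right of 0, and the smooth muscle, fibroblast and endothelial markers wholly left of it.

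In surface cells, heme was accompanied by a difference in few of these genes. The median was 0.10 against -0.044 over all genes, with 32 genes above 0 and 22 below. Rrm2, Ccne2 and Pola2 were at least 2-fold higher and none was lower. Among all genes tested 3.62% were higher and 2.01% lower. Only 31 of the 54 reached the floor on either surface array.

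Rrm2 had the largest surface difference, 2.14 (4.40-fold), and with it heme surface cells exceeded control crypt cells. Ccne2, the second cyclin E, read 4.77 on control surface, 5.92 on heme surface, 5.14 on control crypt and 5.77 on heme crypt, so the heme pools were above the control pools in both compartments, near the floor. Pola2, the regulatory subunit of polymerase alpha, read 5.66, 6.76, 6.71 and 7.39 in the same order. Its heme surface level was thus that of control crypt cells. With log2(2^value + 32) only Rrm2 (1.58) of the 54 passed the rule, where 2.63% of all genes tested were higher. The next largest differences, Chek1 at 0.87, Blm at 0.79 and Prim2 at 0.70, rested on values below the floor on both surface arrays, whereas Rrm1 at 0.68 (6.38 to 7.07) and Pcna at 0.52 (8.48 to 8.999) did not. At the other end were Dnmt1 at -0.49 (6.98 to 6.48), Lig1 at -0.46 (6.74 to 6.28), Rpa2 at -0.41 (5.87 to 5.46) and Msh6 at -0.38 (6.41 to 6.03).

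The roles showed no common side in surface cells. Medians were 0.23 for helicase subunits, 0.17 for the clamp and joining genes, 0.14 for nucleotide supply and 0.13 for chromatin genes, and -0.17 for licensing and firing, -0.11 for polymerases and primase, -0.079 for repair and -0.062 for S phase entry. Only 1 of 7 polymerase and primase genes, 1 of 6 repair genes and 1 of 4 chromatin genes reached the floor on either surface array. Their medians, and the side on which these roles lie, are therefore uncertain. Of the further lists, the 35 replication genes had a median of 0.11, the 31 repair genes -0.041, the 20 E2F and G1 genes -0.012 and the 17 mitosis genes 0.27, with no gene of these lists past the rule in either direction. The floor was reached on either surface array by 22, 17, 17 and 8 genes of these lists, in the same order. Between the surface pools the median was -0.45 for markers of smooth muscle and fibroblasts and -0.31 for leukocyte markers, with no marker past the rule.

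Heme minus control, with its sign, was lower in surface cells than in crypt cells for 49 of the 54 genes. They are the same 49 genes whose gap between compartments was wider on heme. Both counts come from the same subtraction, so they are not separate results. Over all genes, heme minus control was lower in surface cells for 11038 of 19938. It was not always smaller in size, as for Msh6 (-0.38 in surface and 0.18 in crypt cells). The median of the surface difference minus the crypt difference was -0.55, against -0.045 over all genes, and 9 genes were past 2-fold in the negative direction and none in the positive, where 2.17% and 3.29% of all genes tested were. The 9 were Ccne1 (-1.43), Exo1 (-1.38), Tk1 (-1.34), Lig1 (-1.26), Rpa2 (-1.19), Brca1 (-1.15), Dnmt1 (-1.12), Mcm10 (-1.12) and Gins3 (-1.05). On the positive side were Ccne2 (0.52), Rrm2 (0.43), Pola2 (0.41), Chek1 (0.36) and Gins1 (0.022). For this comparison a gene was tested if any array reached the floor, including heme crypt alone. Exo1, Brca1 and Gins3, and on the positive side Chek1 and Gins1, were below the floor on both surface arrays. Only 31 of the 54 reached it on either surface array. For the rest the surface difference is uncertain, and so is their place in the count of 49. With log2(2^value + 32), 3 genes were past 2-fold in the negative direction, where 1.12% of all genes tested were.

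Since the 54 genes lay on 1 side in crypt cells, the sequence before their start sites was examined for words that E2F factors bind. RefSeq promoter windows on GRCm38.p6, from 250 bases before to 50 after a start, were found for 45 of the 54 genes, 53 windows in all. The word TTCCCGC was searched together with 2 variants, of which TTGGCGC is the first and TTCGCGC the second, on both strands, with overlapping matches counted separately. At least 1 was present in 32 of 53 windows (60.4%), against 8.07% of all 32851 windows and 11% of windows of genes measured on the array. The windows of these 45 genes were also richer in G and C, with a median of 61.3%. It was 52.7% in all windows and 57.3% in windows of genes measured on the array. Their median CpG count was 24, against 7 and 15 in the same order. The CCAAT box, searched on either strand, was in 52.8% of these windows and 37.4% of all, and the cell cycle homology region word TTTGAA in 17% and 17.9%. A match is a description of the letters and not a measured site.

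The upstream sequences of 4 genes are shown, written in the direction of transcription and ending at the base before the start, with matches to the E2F words in capitals. Mcm5, Mcm6 and Pola1 are shown because they hold 3 or more such words, and Rrm2 because it had the largest diet difference.
Mcm5, chr8:75109259-75109508, plus strand: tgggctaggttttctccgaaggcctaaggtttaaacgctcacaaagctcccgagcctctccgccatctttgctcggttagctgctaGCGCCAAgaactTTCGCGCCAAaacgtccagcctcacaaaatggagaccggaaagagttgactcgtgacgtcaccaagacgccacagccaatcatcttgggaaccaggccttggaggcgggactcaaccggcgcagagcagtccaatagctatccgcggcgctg
Mcm6, chr1:128359706-128359955, minus strand: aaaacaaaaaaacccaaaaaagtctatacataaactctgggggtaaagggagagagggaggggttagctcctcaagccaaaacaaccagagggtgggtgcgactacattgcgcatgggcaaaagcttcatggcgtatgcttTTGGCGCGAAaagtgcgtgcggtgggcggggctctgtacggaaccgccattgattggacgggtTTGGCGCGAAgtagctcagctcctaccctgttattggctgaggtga
Pola1, chrX:93632156-93632405, minus strand: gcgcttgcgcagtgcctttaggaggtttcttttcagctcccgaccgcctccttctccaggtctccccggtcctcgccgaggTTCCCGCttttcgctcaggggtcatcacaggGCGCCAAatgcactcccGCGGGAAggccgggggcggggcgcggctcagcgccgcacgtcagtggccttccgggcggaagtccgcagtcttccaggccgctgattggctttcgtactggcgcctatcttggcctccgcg
Rrm2, chr12:24708004-24708253, plus strand: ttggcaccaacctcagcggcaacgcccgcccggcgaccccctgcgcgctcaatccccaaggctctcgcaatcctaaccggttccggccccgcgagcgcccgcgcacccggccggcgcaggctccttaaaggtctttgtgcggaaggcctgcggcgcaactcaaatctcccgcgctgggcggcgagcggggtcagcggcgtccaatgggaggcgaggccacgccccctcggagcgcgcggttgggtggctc
In Mcm6 the upstream words overlap in pairs at 2 places, 109 to 100 and 46 to 37 bases before the start. CCAAT boxes lie 57 to 53 and 14 to 10 bases before it. In Mcm5 the words lie between 164 and 143 bases before the start. The 3 upstream words in Pola1 are spaced from 169 to 115 bases before the start. Rrm2 has none of the 3 words in the whole window and a CCAAT box 50 to 46 bases before the start. Of the 4 genes shown, the 3 with several words differed by 1.00 (Mcm5), 0.40 (Mcm6) and 0.38 (Pola1) in crypt cells between diets, and Rrm2 by 1.70. Rrm2 was chosen for its difference, so these values do not compare genes with and without the words. Whether the words go with the diet difference was not tested.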

How the data were processed

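Each of the 4 arrays holds 100 ng of RNA pooled within a diet and compartment. The deposited values are log2 expression per probe set, made with RMA (background correction, quantile normalization and summary of probes) per the submitters' processing notes. Its version, and which arrays were normalized jointly, is not given in the sources used here. Depth has no meaning for arrays, whose number limits the precision.

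Of 35556 probe sets, 21789 had 1 symbol in the platform annotation, 1621 several and 12146 none. Symbols were updated through gene identifiers to the GRCm38.p6 table, with 21698 matched. Probe sets with several symbols named no gene. Values were averaged per gene, and 5 differences of log2 values were taken, with no test because each group has 1 array.

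The members, their roles, the further lists and the alternatives were chosen with earlier results of these data known. Any member could be named, with values on all arrays for those past the rule between diets and for extremes. Up to 4 genes were named per further list in each comparison, besides those under other observations. Without a probe set of 1 symbol, 7 list genes are not analysed here. Sequences are from RefSeq. Work was done in Python 3.11.15, numpy 2.4.6, pandas 2.3.3, matplotlib 3.10.9, and limma 3.58.1 under R 4.3.3.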

Additional observations from a re-analysis of the deposited data

Results flagged for a closer look

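In 7 genes the heme difference was below 0 in surface cells and above 0 in crypt cells, and the difference between the compartments was past 2-fold. The surface minus crypt values were -1.43 for Ccne1, -1.38 for Exo1, -1.34 for Tk1, -1.26 for Lig1, -1.19 for Rpa2, -1.12 for Dnmt1 and -1.12 for Mcm10. With 1 array in each group this difference was not tested. Ccne1 had almost no surface difference (-0.062), so its value is nearly all from crypt cells, whereas Dnmt1 (-0.49 and 0.62) and Lig1 (-0.46 and 0.80) differed in both. Exo1 was below the floor on both surface arrays (4.75 and 4.52), so the sign of its surface difference is uncertain. Rpa2 was below it on heme surface (5.46). In all, 22 of the 54 genes had opposite signs in the compartments. Since all 54 crypt differences lay above 0, these are the 22 genes below 0 in surface cells. Among them Orc1, Cdc6, Pola1, Prim1, Pold1, Pole2, E2f1, Brca2 and Exo1 were below the floor on both surface arrays, where the sign is uncertain. Over all genes, 11203 of 19938 lay below 0 in surface cells.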

How the results depend on the processing

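Of the 7 alternatives, no floor, a floor raised by 1, cyclic loess and the highest probe set per gene left each count of the 54 genes within 1.5 times the reported one and each median on its side of 2-fold. Centring on ribosomal protein genes left the counts between diets within 1.5 times (13 higher in crypt cells, 2.71% of all genes tested) and moved those of surface against crypt. On the control diet the count of genes lower in surface cells became 8 (0.969% of all genes tested; 65.7% were higher), and the median turned to 0.044. Genes that passed the rule as reported and turned to the other sign were Orc1 (0.20), Cdt1 (0.26), Dbf4 (0.0069), Pola2 (0.23), Prim2 (0.055), Pold1 (0.15), Pcna (0.041), Rfc1 (0.069), Rfc3 (0.017), Rpa2 (0.17), Lig1 (0.11), Rrm2 (0.036), Dut (0.047) and Brca1 (0.24). On heme the counts became 1 higher (Ccne2; 59% of all genes) and 23 lower (2.7% of all), the median -0.70, and Rfc2 (0.15) and E2f1 (0.13) changed sign. By construction this moves all genes alike, by 1.27 and 1.15. A bound of 1.5-fold gave 32 genes higher in crypt cells (5.89% of all), where the median of 0.64 then passed, and 23 lower in the difference between compartments (8.18% of all). With log2(2^value + 32), which shrinks differences from low values, 1 gene was higher in surface cells (2.63% of all), 3 in crypt cells (1.01%), 19 lower in surface than crypt cells on the control diet (8.41%; median -0.85), and 3 lower in the difference between compartments (1.12%). No paired analysis was possible because each group has 1 array. Low signal, below the floor for many of the genes, limits the surface values.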

Other observations

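Some G1 and repair genes outside the 54 had other differences between diets; apart from Cdk6 they were named after their values were seen. Cdk6, a kinase that starts the inactivation of the retinoblastoma protein, differed by -0.99 in surface cells (7.69 to 6.70), just under the 2-fold mark, and by -1.002 in crypt cells (9.78 to 8.78). The cyclin D1 gene Ccnd1 differed by -0.55 and -0.48, short of the mark in both. The inhibitor gene Cdkn2c was on the other side of 0, at 5.04 and 5.70 in control and heme surface cells and 5.96 and 6.82 in crypt cells.

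Atm, the kinase that signals broken DNA, read 8.47 on control crypt and 8.17 on heme crypt. On the surface arrays it read 6.25 on control and 5.62, below the floor, on heme (-0.62). The mismatch repair gene Msh3 read 6.90 on control surface and 6.13 on heme surface, and its difference of -0.77 was the largest in size among the 31 further repair genes in surface cells. None of these values has a replicate.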
